A study of Gallus gallus with 6 samples.

Results

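In the eyelids of 6 chickens, 148 Ensembl loci stood at a higher level in every one of 3 libraries, E10, E13 and E18, than in any of the other 3, E11, E15 and E16. This division runs across eyelid colour: E10 came from a black eyelid (black-eyelid bird 1), and E13 and E18 from light-yellow eyelids (light-yellow birds 3 and 2). On the other side, E11 and E15 came from black eyelids (birds 2 and 3) and E16 from a light-yellow one (bird 1). Below, E10, E13 and E18 are called the upper libraries and E11, E15 and E16 the lower libraries. These names describe the 148 loci and stand for no treatment or label. The loci were selected on their measured levels among 11780 Ensembl loci whose mean reached at least 1 FPKM (fragments per kilobase of locus, scaled to library size). On the log2(FPKM + 1) scale, the lowest upper library had to exceed the highest lower library, and the means had to differ by at least 1. The 148 loci are 1.26% of those 11780, and the table lists 17780 loci in all. The rule's upper limit of 150 loci was not reached. Since these levels made the choice, the difference between upper and lower libraries is given as a description, without a test.

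The birds were Lindian chickens, a Chinese native breed, slaughtered at 30 weeks of age, with black eyelids in 3 and light-yellow eyelids in 3. Total RNA of eyelid tissue was sequenced as 1 library per bird. The study compared the colours, and no label divides the birds in the way the 148 loci do. No treatment, sex, flock or sequencing batch is given in the labels.

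An eyelid is a thin fold of skin that also holds striated and smooth muscle, connective tissue, vessels, nerves, immune cells and gland tissue, with a mucous lining on its inner face. Black colour in bird skin comes from melanin, the pigment that melanocytes make and pass to neighbouring cells. A sample of the whole eyelid mixes RNA from all of these, so for any locus here fewer cells of a type and less RNA per cell cannot be told apart. The file pairs no identifier with a gene name, and 0 of the 25635 entries of the gene table used here carry an Ensembl identifier. The loci therefore carry no gene name, no role and no position here. Neither the tissue nor the colours could be checked against marker genes. The 2 loci with the largest difference are given by identifier and the others by their rank.

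The read totals behind the FPKM scale, recovered from the steps between values, were 20621850, 19426492 and 20503061 for E10, E13 and E18. They were 17116783, 19626098 and 17820824 for E11, E15 and E16, so the ranges overlapped. Of the other library-wide measures, some kept the sides apart and some did not. Loci above 0 numbered 16506, 16624 and 16634 in the upper libraries and 16717, 16942 and 16970 in the lower ones. The mean locus length, weighted by reads, was 2935, 2876 and 2874 bases in the upper and 2870, 2701 and 2485 bases in the lower libraries. E18 and E11 were thus only narrowly apart. Summed FPKM overlapped, with 608443 in E18 and 604086 in E11. The percent of reads in loci of up to 1000 bases overlapped too, at 16.24 in E11 beside 16.25 in E13 and 16.69 in E18. The part of these measures in the level of the 148 loci was not tested.

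The largest difference belonged to ENSGALG00000019063. Its level was 107, 17.8 and 81.9 FPKM in E10, E13 and E18 and 11.2, 3.87 and 2.50 FPKM in E11, E15 and E16. The upper libraries thus spread widely, with light-yellow bird 3 far below the other two and less than 2 times above black-eyelid bird 2, the highest of the lower libraries. The mean was 68.7 FPKM ± 45.8 (SD, n = 3) in the upper and 5.86 FPKM ± 4.68 (SD, n = 3) in the lower libraries, a ratio of 11.7. The difference on the log2(FPKM + 1) scale was 3.22. Behind these values lay 6163, 972 and 4709 reads in the upper and 538, 213 and 125 reads in the lower libraries, on a locus of 2806 bases.

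ENSGALG00000016012, second by difference, kept the widest distance between the sides. It stood at 66.9, 26.4 and 27.6 FPKM in E10, E13 and E18 and at 5.17, 4.51 and 4.97 FPKM in E11, E15 and E16. The lower libraries were nearly level with each other, and black-eyelid bird 1 was more than 2 times above both light-yellow birds of the upper libraries. The lowest upper and the highest lower library lay 2.15 apart on the log2(FPKM + 1) scale, the largest such gap of the 148 loci, and the mean difference was 2.68. This is a short locus of 384 bases with 34 reads in each lower library and 530, 197 and 217 reads in E10, E13 and E18.

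**Figure D1:**
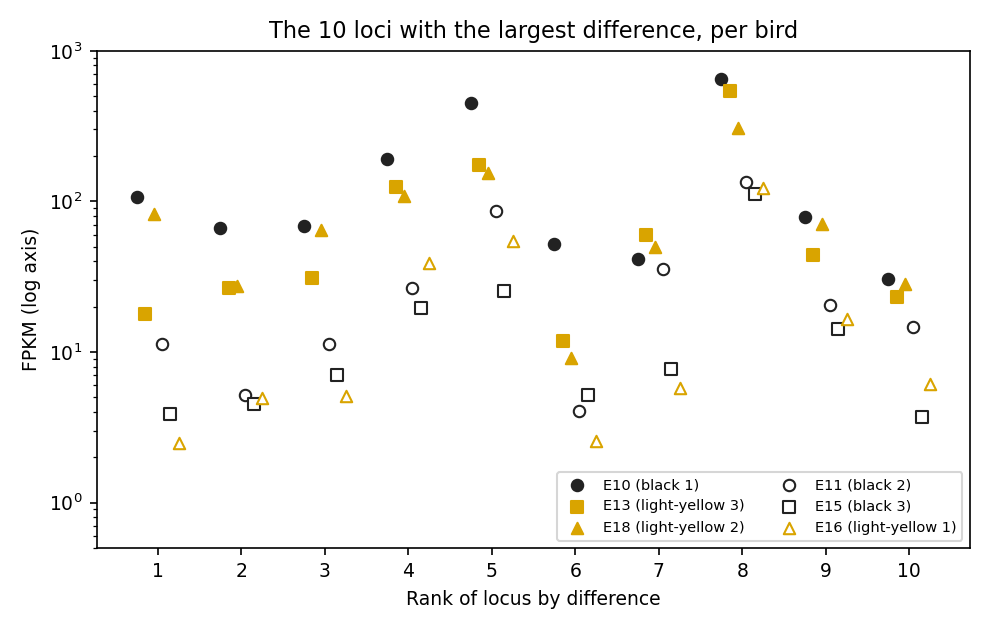
Level in FPKM (log axis) of the 10 loci with the largest difference, 1 point per bird, filled for E10, E13 and E18 and open for E11, E15 and E16, in black or yellow by eyelid colour. At rank 1 the points run from 2.50 to 107 FPKM, and at every rank filled points of both colours lie above open points of both colours.

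Among the next loci the pattern within each side varied. The third locus was at 69.0, 31.1 and 64.5 FPKM in E10, E13 and E18 and at 11.3, 6.98 and 5.12 FPKM in E11, E15 and E16. The fourth was at 192, 124 and 109 FPKM against 26.5, 19.6 and 38.7 FPKM, in the same order of libraries. In the third, black-eyelid bird 2 was the highest of the lower libraries, and in the fourth it was light-yellow bird 1. Black-eyelid bird 2 set this upper edge of the lower side in 90 of the 148 loci (60.8%), but not in every one. Over all 11780 loci its share was 48.7%. The locus at rank 5 was at 449, 175 and 155 FPKM in the upper libraries and at 86.3, 25.5 and 54.9 FPKM in the lower ones. It and the next were highest in E10, at more than 2 times the level of the next library. The eighth, at 645, 537 and 306 FPKM against 133, 111 and 122 FPKM, combined a high level with lower libraries that differed little among themselves. The seventh was different: E11, at 35.5 FPKM, lay close under E10, at 41.3 FPKM, while E15 and E16 were at 7.67 and 5.79 FPKM.

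Most of the 148 differences were modest. The median was 1.18 on the log2(FPKM + 1) scale and the smallest 1.01, with 30 loci at 1.5 or more and 5 at 2 or more. As a ratio of mean FPKM, the upper libraries exceeded the lower ones by between 1.86 and 11.7 times, with a median of 2.501. The median gap between the lowest upper and the highest lower library was 0.496, and 8 loci had a gap of at least 1. In 14 loci the gap was under 0.1, and in 12 of these E11 was the lower library closest to the upper ones.

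The limits of the rule cut through a continuous range of loci. Of the 11780 loci, 2707 (23.0%) were higher in every upper than in every lower library, and 1602 were lower in every upper library, whatever the size of the difference. The median-of-ratios scaling factor, the typical level of a library beside the others, was 0.885 in E16. In the other libraries it lay between 0.995 (E15) and 1.05 (E11). Its part in the counts of 2707 and 1602 was not tested. After median-of-ratios rescaling of every library, 113 of the 148 chosen loci still met the rule. The difference fell under 1 in 33 of the 148, and the libraries overlapped in 3. The part of E16 alone in this loss was not tested. The last locus inside the limit had a difference of 1.0064 and the first outside it 0.99994. At the overlap limit, the closest locus inside had a gap of 0.0045 and the closest outside one of -0.018. A difference of at least 1 was reached by 183 loci, of which 35 had overlapping libraries. Among 1473 loci with other identifiers, which the rule does not consider, 11 (0.747%) met the same limits.

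**Figure D2:**
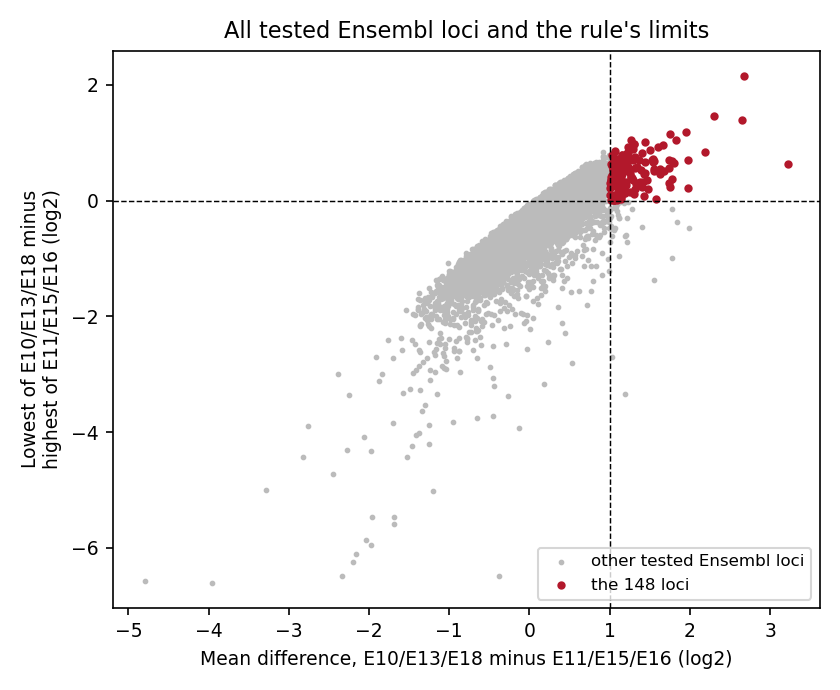
Each point is 1 of 11780 tested Ensembl loci, by its mean difference between upper and lower libraries (x axis, log2) and the gap between the lowest upper and highest lower library (y axis, log2), with the rule's limits dashed. The 148 loci, in red, continue the edge of the cloud of other loci without a break at the limits, and the rightmost has a difference of 3.22.

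The 148 loci covered a wide range of levels. The mean over the 6 libraries ran from 1.03 to 992 FPKM with a median of 15.9 FPKM, against a median of 14.0 FPKM over all 11780 loci. At 1 to 10 FPKM there were 49 of them, or 1.07% of the loci of that level. At 10 to 100 FPKM there were 81 (1.26%), and at 100 FPKM or more 18 (2.43%). Adding 1 to FPKM understates changes of low loci, so the rule itself favours a smaller share at low levels. The mean over the 6 libraries, which sets the floor and these classes, includes the upper libraries that the rule makes high. Some loci reached the floor of 1 FPKM only through them, such as rank 109, at a mean of 1.82 FPKM in the upper and 0.237 FPKM in the lower libraries. The shares by level are therefore a description only. The median FPKM of the 148 loci was 25.9, 19.7 and 20.4 in E10, E13 and E18 and 10.9, 7.73 and 6.92 in E11, E15 and E16. Over all 11780 loci the medians were 14.1, 14.3 and 13.9 FPKM in the upper and 14.3, 13.3 and 11.5 FPKM in the lower libraries. Together the 148 loci made up 2.39%, 1.98% and 1.94% of the summed FPKM in the upper and 0.970%, 0.633% and 0.695% in the lower libraries.

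The most abundant of them was one of the loci just inside the limit, at rank 147. It stood at 1547, 1472 and 948 FPKM in E10, E13 and E18 and at 591, 503 and 891 FPKM in E11, E15 and E16. Light-yellow bird 1 was here only slightly below light-yellow bird 2. The next most abundant locus was at 1413, 693 and 779 FPKM against 573, 417 and 356 FPKM. The third by level was at 944, 992 and 619 FPKM against 237, 170 and 379 FPKM, a ratio of means of 3.25. The fourth was by far the highest in light-yellow bird 2, with 1590.6 FPKM in E18. E10 and E13, at 475 and 374 FPKM, also lay above the lower libraries, at 232, 192 and 156 FPKM. In the last of the 5, E11 was close to the upper libraries again, at 527 FPKM beside 559, 595 and 826 FPKM in E10, E13 and E18, while E15 and E16 were at 249 and 107 FPKM. These 5 loci held between 34.6% and 40.3% of the summed FPKM of the 148 in each library.

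**Figure D3:**
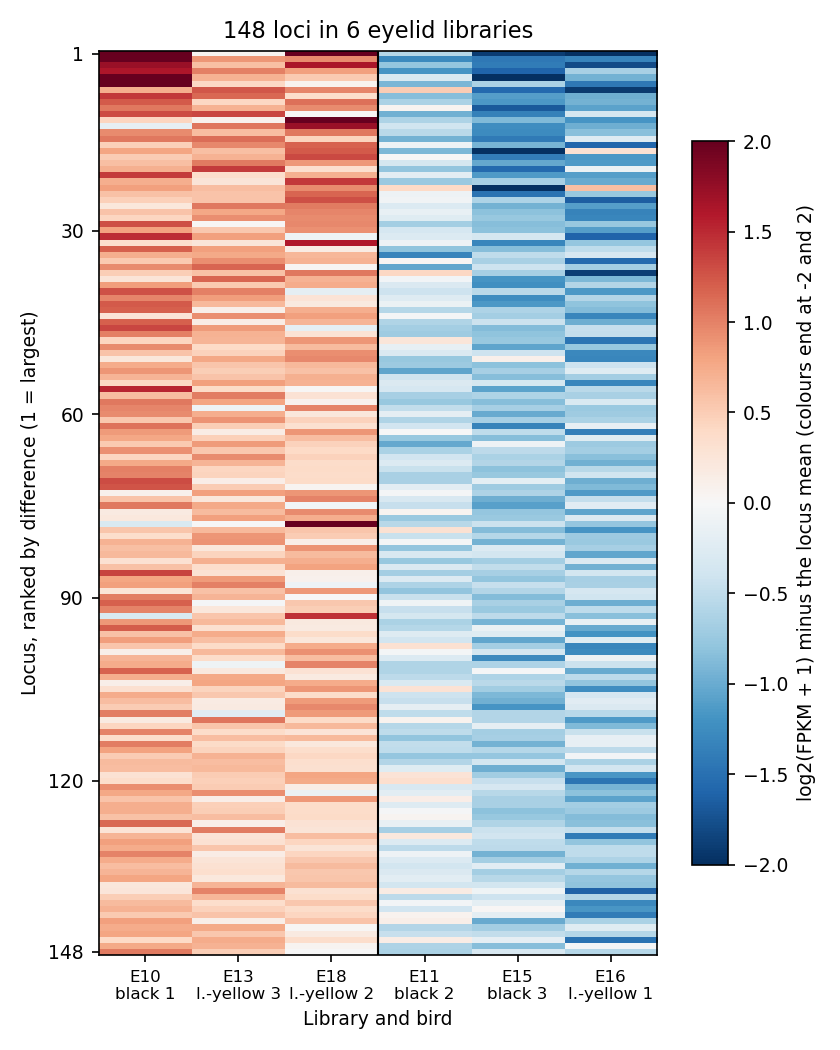
The 148 loci (rows, by rank of difference) in the 6 libraries (columns), coloured by log2(FPKM + 1) minus the locus mean, with a line between upper and lower libraries. Red (above the locus mean) prevails left of the line and blue right of it, with exceptions such as rank 23, where E11 and E16 are red, and rank 78, where E10 is blue. E10 is the reddest of the upper libraries in 69 rows, and E11 is the highest of the lower libraries in 90.

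Within the upper libraries, black-eyelid bird 1 was most often the highest. E10 was highest in 69 of the 148 loci (46.6%), E18 in 42 (28.4%) and E13 in 37 (25.0%). Over all 11780 loci the shares were 34.6%, 28.0% and 37.4%, in the same order. One upper library stood at 2 times or more the level of the next in 10 loci, E10 in 7 and E18 in 3, a count not made over all loci. The largest such ratio was 7.42, at rank 78, where E18 was at 7.42 FPKM with 47 reads, against 0.628 FPKM in E10 and 0.9995 FPKM in E13, with 4 and 6 reads.

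Within the lower libraries, black-eyelid bird 2 was the one nearest to the upper side. E11 was the highest of the lower libraries in 90 loci (60.8%), E16 in 36 (24.3%) and E15 in 22 (14.9%), against 48.7%, 19.3% and 32.0% over all 11780 loci. E16 was the lowest in 71 loci (48.0%), against 57.2% over all. E15 was the lowest in 64 (43.2%), against 21.6%. The highest lower library stood at 2 times or more above the next in 16 loci, 13 of them with E11 on top. This count, too, was not made over all 11780 loci. The median spread within a locus was 0.69 on the log2(FPKM + 1) scale among the upper and 0.78 among the lower libraries. Over all 11780 loci it was 0.32 and 0.45. The rule chose the loci on these same levels. The choice can therefore shape these spreads and, on either side, the shares of the highest and lowest library.

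Some loci entered through the level of 1 bird. At rank 23 the levels were 18.9, 16.3 and 20.8 FPKM in E10, E13 and E18. E11 and E16 were just below, at 13.9 and 16.1 FPKM, while black-eyelid bird 3 (E15) was at 0.097 FPKM with 3 reads. When each library was left out in turn, 66 of the 148 loci kept a difference of at least 1 every time, among them 29 of the 30 with the largest differences. The other 82 fell under that limit, or under the mean of 1 FPKM, without at least 1 of the libraries. Omitting the highest upper or the lowest lower library lowers the difference by construction. Loci close to the limit of 1 therefore fall under it readily, and large differences tend to stay above it. The smallest difference among the 66 was 1.06. Rank 139 was among the 82, although its levels were even, at 47.6, 53.9 and 43.7 FPKM against 22.9, 24.8 and 22.0 FPKM. The 82 are thus not all loci of 1 bird. The difference fell under 1 in 44 of the 148 without light-yellow bird 1 (E16) and in 36 without black-eyelid bird 1 (E10). Without black-eyelid bird 3 (E15) the number was 26, without light-yellow birds 2 (E18) and 3 (E13) it was 17 and 16, and without black-eyelid bird 2 (E11) it was 6.

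The median depth of the 148 loci was 1145, 902 and 958 reads per locus in E10, E13 and E18 and 429, 346 and 313 reads in E11, E15 and E16. None of the 148 was listed at 0 in any library, 26 had under 50 reads in at least 1 lower library, and 9 had under 10. The exact 95% Poisson intervals of every upper and every lower library were apart in 111 loci and overlapped in 37. These intervals cover counting error only, not the difference between birds. The rule chose loci with every upper library above every lower one, which itself favours intervals that are apart. The intervals were not computed for the other tested loci. The number apart is therefore a description of depth at the 148 loci and no separate evidence for the division.

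Eyelid colour, the comparison the birds were chosen for, was then read for the same loci. The rule puts 1 black-eyelid bird among the upper and 2 among the lower libraries, and the reverse for light-yellow birds. Each colour thus spans the division, the colours overlap at all 148 loci by construction, and the standard error of a colour difference is enlarged with it. Its median was 0.51 on the log2 scale for the 148 loci and 0.24 for all 13253 loci tested, which include those with other identifiers. With limma on log2(FPKM + 1), 0 of the 148 passed a Benjamini-Hochberg adjusted p under 0.05, where 4 of 13253 (0.0302%) did. At an unadjusted limma p under 0.05 there were also 0, against 2.60% of all loci and, for those higher in light-yellow eyelids, 1.09%. In limma's voom fit to the recovered reads the counts were 0 adjusted, against 0.0528%, and 2 unadjusted, against 2.48%. Because of how the loci were chosen, these counts do not show that the colours are alike at them.

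The colour difference, black minus light-yellow, had a median of -0.21 over the 148 loci and 0.065 over all 13253, and was below 0 in 116 of the 148 (78.4%), against 37.0% of all loci. After median-of-ratios rescaling the shares were 83.1% and 48.7%. The median over the 148 loci changed with the bird left out. It was 0.098 without black-eyelid bird 3, 0.0027 without light-yellow bird 2 and 0.011 without light-yellow bird 3. Without black-eyelid bird 2 it was -0.101, without black-eyelid bird 1 -0.68 and without light-yellow bird 1 -0.66. Either of the last 2 omissions leaves 1 colour wholly on 1 side of the division, which favours a value further below 0. With 2 of 3 light-yellow birds in the upper libraries, the rule itself favours a value below 0. In black eyelids ENSGALG00000019063 had a mean of 40.5 FPKM ± 57.3 (SD, n = 3), beside 34.1 FPKM ± 42.1 (SD, n = 3) in the light-yellow ones. The difference on the log2 scale, 0.075 with an SE of 1.31, had a 95% confidence interval from -2.94 to 3.09 (limma adjusted p = 0.999). For ENSGALG00000016012 the means were 25.5 FPKM ± 35.8 (SD, n = 3) in black and 19.6 FPKM ± 12.7 (SD, n = 3) in light-yellow eyelids. Its log2 difference of -0.34, with an SE of 0.99, had a 95% confidence interval from -2.61 to 1.93 (limma adjusted p = 0.999). The SD exceeded the mean in each case except in the light-yellow eyelids of the second locus, and the birds of both colours overlapped.

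Of the 148, the smallest unadjusted limma p was 0.0521, at rank 77. That locus was at 51.2, 77.8 and 73.5 FPKM in E10, E13 and E18 and at 25.9, 25.9 and 35.7 FPKM in E11, E15 and E16. On each side the light-yellow birds lay above the black-eyelid ones. The log2 difference was -0.84 (SE 0.37), and the limma adjusted p was 0.999.

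Black and light-yellow can also be set side by side within each side of the division, without the shift between sides. The rule chose the loci on these same levels, so the choice can shape the within-side shares and medians as well. In the upper libraries, E10 was above the mean of E13 and E18 in 95 of the 148 loci (64.2%), against 51.3% of all 11780, with a median difference of 0.21 against 0.0081 on the log2 scale. In the lower libraries, the mean of E11 and E15 was above E16 in 93 loci (62.8%), against 71.1% of all, with a median of 0.16 against 0.20. Black was higher on both sides in 51 loci and lower on both in 11. In the remaining loci the sides pointed opposite ways, with black higher only among the upper libraries in 44 and only among the lower libraries in 42. These joint counts were not made over all 11780 loci, so they cannot be read as particular to the 148. With 1 bird of a colour on each side, these are values without a test.

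**Figure D4:**
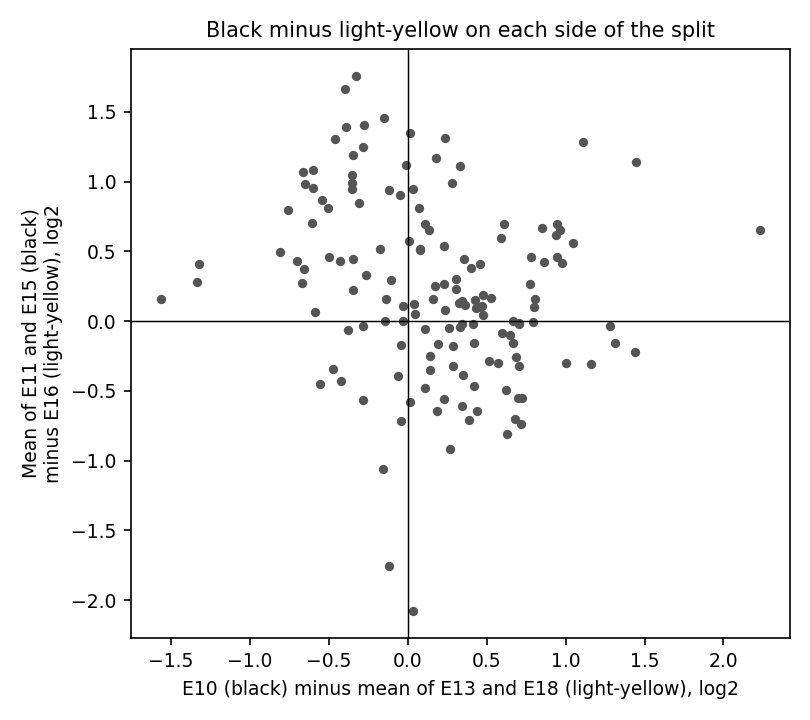
Black minus light-yellow among the upper libraries (x axis, log2) and among the lower libraries (y axis, log2), 1 point for each of the 148 loci. The upper right holds 51 points, the lower right 44, the upper left 42 and the lower left 11. The same counts were not made over all tested loci.

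Locus length, recovered with the reads and not used by the rule other than through FPKM, lay close to that of the other loci. The median was 2041 bases for the 148 loci, with quartiles of 1273 and 2992, and 2141 bases for the 11779 tested loci with a recovered length, with quartiles of 1300 and 3459. When those loci were divided by length into 5 classes of nearly equal number, the 148 made up, from the shortest class to the longest, 1.48%, 1.19%, 1.31%, 1.27% and 1.02%. In the opposite direction, higher in E11, E15 and E16, 163 loci met the same limits. The 150 of them with the largest difference were shorter, with a median of 1173 bases. They made up 3.00% of the shortest class and 0.170% of the longest. Over all loci the median difference between upper and lower libraries went from -0.082 in the shortest class to 0.21 in the longest. Loci are not independent, and the difference in length between the 2 sets was not tested.

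**Figure D5:**
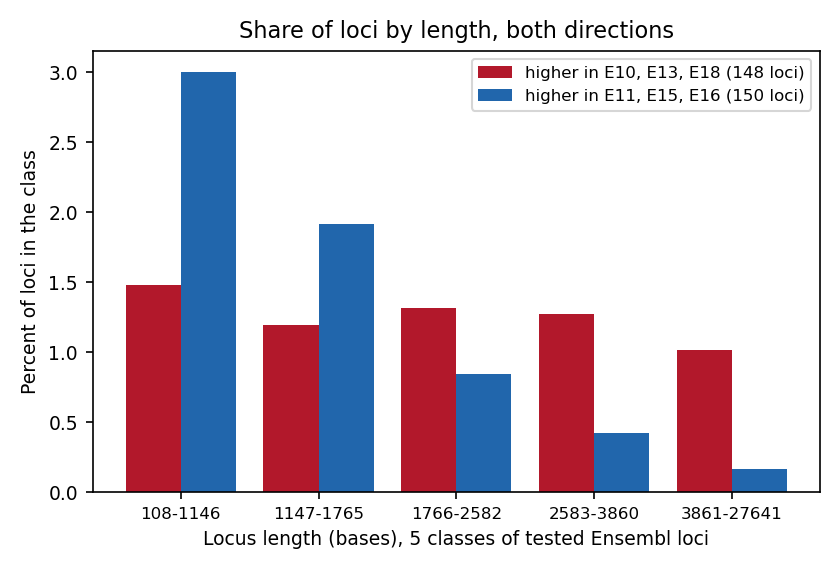
Share of tested Ensembl loci (percent) in each of 5 classes of locus length (bases) that belongs to the 148 loci (red) or to the 150 loci higher in E11, E15 and E16 (blue). The red bars stay between 1.02% and 1.48%, while the blue bars go down from 3.00% to 0.170%.

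The 150 loci of the opposite set made up 2.25%, 2.32% and 2.56% of the summed FPKM in E10, E13 and E18 and 5.22%, 4.74% and 6.35% in E11, E15 and E16, more than the 148 loci in every library except E10. Its median difference was 1.18 on the log2 scale, as for the 148 loci, and its largest was 4.79, against 3.22. The opposite set was cut from 163 loci to the 150 with the largest differences, while the 148 were not cut, so the 2 medians are not fully alike in kind.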

How the data were processed

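The authors deposited 1 table of FPKM values, 1 column per library. TopHat, Cufflinks 2.1.1, HTSeq 0.6.1 and DESeq 1.18.0 are named, per the submitters' processing notes, without roles. The build, the annotation and the strand setting were not given in the sources used. Overlapping or antisense loci may therefore share reads. Columns were matched to birds by sample description (0 unmatched), colour and bird number by title.

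The loci, the rule and the gene lists were chosen with earlier results of these data known. The lists could not be matched to identifiers (0 found) and were not tested. Without gene names, the rule for named loci gave the 2 identifiers with the largest difference and ranks for the rest.

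Whole reads and lengths were recovered for 17220 loci (reads whole within 0.02), 99.8% of values above 0, and came to between 99.5% and 99.6% of each implied total. A unit may be a read or a read pair. Counts sharing an undetected factor are recovered too low. Colours were compared with limma 3.58.1 (R 4.3.3; trend, two-sided, Benjamini-Hochberg) on log2(FPKM + 1) over every locus whose mean reached 1 FPKM. Adding 1 understates changes of low loci. Alternatives were pseudocounts, filters, median-of-ratios scaling, no trend, a bird-number block, voom and leaving out each bird. Recovery and test were tested on simulated data. Those data held colour effects but no division across colour, so they do not vouch for the colour fit at the 148 loci. Python 3.11.15 was used. Birds are separate animals per the labels.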

Additional observations from a re-analysis of the deposited data

How the results depend on the processing

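The number of Ensembl loci meeting the rule was 148. It became 227 with a pseudocount of 0.1 and 189 with 0.5, each including all 148. After median-of-ratios rescaling 113 loci met it, all among the 148, and with a mean of at least 5 FPKM 125. Rescaling shifted the median colour difference of all loci from 0.065 to 0.0061. Leaving out each bird gave 148 to 276 loci, the highest without black-eyelid bird 2 (E11), and between 104 and 142 of the 148 were among them. Between colours, 0 of the chosen loci passed in any of the 14 alternatives to limma on log2(FPKM + 1). With all birds in, the rule makes the colours overlap at these loci, so the 0 does not show that the colours are alike. All 148 were tested except with a mean of at least 5 FPKM (125 tested) and on omission of black-eyelid bird 1 or light-yellow bird 2 (146 each). At an unadjusted p under 0.05 there were 31 without black-eyelid bird 1 (21.2% of 146, against 9.19% of all loci) and 29 without light-yellow bird 1 (19.6% of 148, against 3.09%), and 0 to 4 in the others. All 31 and all 29 were higher in light-yellow eyelids. The shares over all loci, 9.19% and 3.09%, count both directions, and the part higher in light-yellow eyelids was not counted for these omissions. Either omission leaves 1 colour wholly on 1 side of the division, so the choice of loci favours such counts. How far it accounts for them was not tested. The median colour difference over the 148 loci, -0.21, reversed on omission of black-eyelid bird 3 (0.098), light-yellow bird 2 (0.0027) or light-yellow bird 3 (0.011), and ran from -0.68 to 0.098 with a bird left out. The colour difference of ENSGALG00000019063 ran from -1.19 to 1.19 and reversed when black-eyelid bird 1 (-1.19) and when light-yellow bird 1 (-1.09) was left out. That of ENSGALG00000016012 ran from -1.52 to 0.29 and reversed without black-eyelid bird 2 (0.21), black-eyelid bird 3 (0.29), light-yellow bird 2 (0.048) or light-yellow bird 3 (0.018). When bird number entered as a replicate block, 0 of the 148 passed and the median was -0.21. The deviations of same-numbered birds from the colour means correlated at -0.51, -0.059 and -0.23. Each such pair holds 1 upper and 1 lower library, so these values cannot tell whether the birds share more than a number. Depth limits the 9 loci with under 10 reads in a lower library.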
